A study of Mus musculus with 40 samples.

Results

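The 9 genes described here, Pck1, G6pc, Fbp1, Pcx, Pdk4, Ppargc1a, Igfbp1, Foxo1 and Glud1, encode enzymes and regulators of glucose production and of the switch to stored fuel in fasting. They were chosen by name, with earlier results of these data known. All 9 are among the 55359 gene identifiers counted and among the 17345 genes abundant enough to be tested. Kidney RNA was measured in 40 male mice labelled C57BL/6 (C57BL/6NCrl in the design text), in 8 groups of 5 mice with 1 library each. One group received sesame oil by gavage, and the others received 2,3,7,8-tetrachlorodibenzo-p-dioxin (TCDD) in the same oil at 0.03, 0.1, 0.3, 1, 3, 10 or 30 µg/kg. All mice were gavaged at 4-day intervals, 7 times, from an age of 30 days, had free access to feed, and were killed at 58 days within 3 hours of lights-on. Each library came from about 100 mg of the right kidney, and the labels do not say which zones of the kidney a piece held. Body weight and feed intake were not analysed here.

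The kidney is, beside the liver, an organ that releases newly made glucose, and the proximal tubule does this work, mainly from lactate, glutamine and glycerol. Pyruvate carboxylase (Pcx) and phosphoenolpyruvate carboxykinase (Pck1) carry out the first committed steps, fructose-1,6-bisphosphatase (Fbp1) acts in the middle, and glucose-6-phosphatase (G6pc) releases free glucose. Glutamate dehydrogenase (Glud1) feeds glutamine carbon into the pathway and frees ammonia. When insulin falls, the transcription factor FOXO1 (Foxo1) enters the nucleus, with PGC-1alpha (Ppargc1a) as a coactivator, and Igfbp1 and Pdk4 are among the classical genes it activates. Igfbp1 encodes a secreted protein that binds insulin-like growth factors, and Pdk4 encodes a kinase that shuts down pyruvate dehydrogenase and so spares pyruvate. TCDD binds the aryl hydrocarbon receptor (AhR), and in rodent liver it is known for lowering Pck1 and other gluconeogenic transcripts.

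Gene counts ranged from 15278423 to 25575317 per library, and the mitochondrial share from 7.31 to 11.3%. Levels are given in CPM, the gene counts scaled to library size with TMM factors. Cyp1a1, the textbook AhR target, checked the dosing: it averaged 2.37 CPM ± 1.25 (SD, n = 5) in vehicle and 2537 CPM ± 435.6 (SD, n = 5) at 30 µg/kg. The log2 fold change of Cyp1a1 was 10.07 ± 0.31 (SE; adjusted p = 2.58e-22 by edgeR's quasi-likelihood test). Tiparp, an AhR target that encodes a repressor of the receptor, rose as well, from a mean of 28.8 to one of 43.2 CPM, which is 0.58 ± 0.10 on the log2 scale (adjusted p = 2.37e-05). Proximal and distal tubule markers were abundant in every library. Some libraries stood apart. The summed level of 7 markers of the S3 segment, the last stretch of the proximal tubule, was 2988 and 3289 CPM in vehicle replicates 1 and 2 and 4959 to 5879 CPM in the other vehicle libraries. At 30 µg/kg it was 4016, 2635, 736.5, 1228 and 1629 CPM in replicates 1 to 5. In such bulk samples, fewer cells of a type and less RNA per cell cannot be told apart. Adrenal cortex markers reached 827 and 867.7 CPM in 1 library each at 0.03 and 1 µg/kg, and 46.3 CPM in 1 at 3 µg/kg, against 4.82 to 6.79 CPM in vehicle and 5.11 to 9.49 CPM at 30 µg/kg.

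In the 30 µg/kg group, Pdk4 and Igfbp1 were about an order of magnitude above vehicle on average, and the rise was very unequal between the 5 mice. Pck1, Pcx and Glud1 were also called higher, by smaller amounts. These 3 calls were lost in a fit to the 2 groups alone (edgeR adjusted p = 0.326, 0.343 and 0.383). They were also lost without the filter on low counts (edgeR adjusted p = 0.0901, 0.056 and 0.0763). The main fit shares 1 estimate of the spread over all 8 groups. For Glud1 the SD was 117.3 CPM at 30 µg/kg, 14.02 CPM at 10 µg/kg and 60.15 CPM in vehicle. G6pc, Fbp1, Ppargc1a and Foxo1 did not pass the test. The 5 called genes are 5 of 9, where 15.9% of all genes tested were called at this dose, 8.39% higher and 7.55% lower. Because the 9 genes were chosen with earlier results of these data known, this count is not independent of the data. The median log2 fold change was 0.25 over the 9 genes and 0.01 over all genes tested. A gene is called here when the adjusted p of edgeR's quasi-likelihood test (Benjamini-Hochberg over all genes tested) is under 0.05.

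Pdk4 was at 22.8, 30.6, 17.1, 35.7 and 27.4 CPM in the 5 vehicle libraries. At 30 µg/kg it was at 32.9, 79.2, 720.5, 494.5 and 111.1 CPM in replicates 1 to 5. Replicate 1 lay inside the vehicle range, replicates 2 and 5 above it, and replicates 3 and 4 far above it, with a 21.9-fold spread between the highest and the lowest library. The log2 fold change was 3.43 ± 0.55 (SE), a 10.8-fold rise, with an edgeR adjusted p of 3.44e-05. Without replicate 3, the highest, it was 2.75 and still called (edgeR adjusted p = 0.00023). The adjusted p ran from 1.12e-10 to 0.0626 over the 17 alternatives, and the call was lost only when the fit held the 2 groups alone (0.0626).

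Igfbp1 was at 5.42, 3.95, 1.43, 2.56 and 7.54 CPM in vehicle. The 30 µg/kg libraries held 4.43, 39.2, 64.8, 59.7 and 34.4 CPM as replicates 1 to 5. Replicates 2 to 5 lay above every vehicle library, and replicate 1 again lay among them. The log2 fold change was 3.28 ± 0.63 (SE), or 9.74-fold, with an edgeR adjusted p of 0.000358. All 17 alternatives kept the call, with log2 fold changes from 3.05 to 3.61 and adjusted p from 2.3e-06 to 0.0385. The Cyp1a1 level was 2884 CPM in replicate 1, and the 5 libraries of the group, this one included, ran from 2074 to 2996 CPM. The reason for the low Igfbp1 and Pdk4 levels of replicate 1 was not tested.

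**Figure D1:**
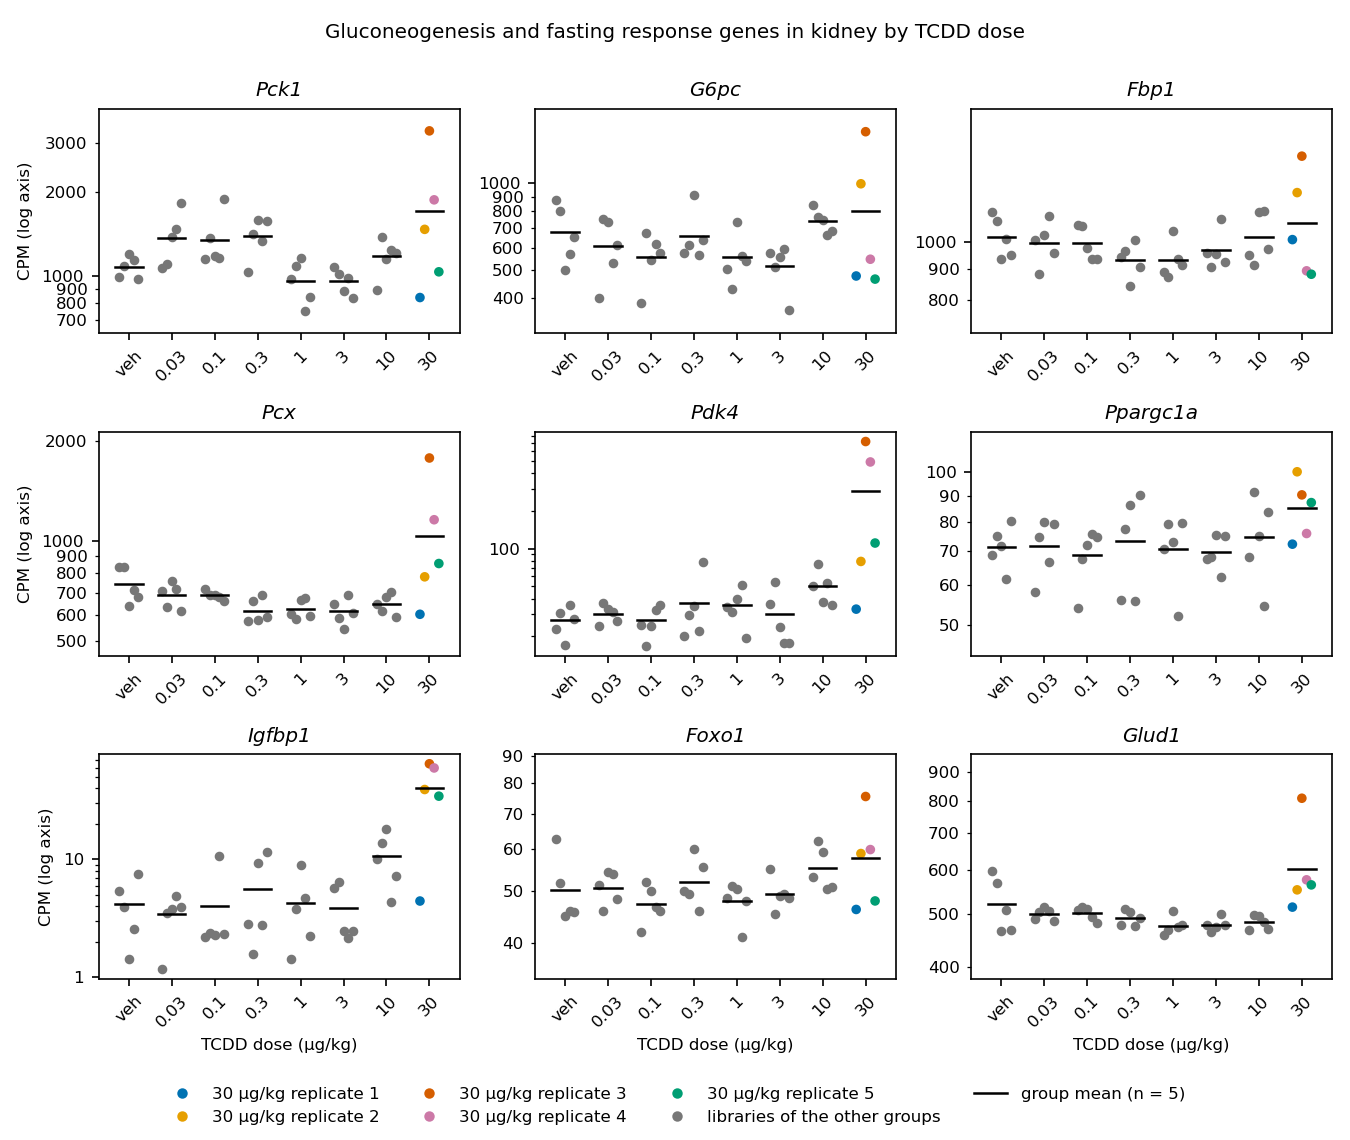
Level of each of the 9 genes in every library (CPM, log axis) against TCDD dose (µg/kg), with group means as bars and the 5 libraries at 30 µg/kg in colours. Pdk4 and Igfbp1 separate the 30 µg/kg libraries widely, from 32.9 to 720.5 CPM and from 4.43 to 64.8 CPM, while Fbp1 lies between 844.1 and 1390 CPM over all doses.

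The 250 bases before the start sites of Pdk4, Igfbp1, Pck1, Pcx and Glud1 are shown because these are the 5 genes called at 30 µg/kg. They come from RefSeq, in the GRCm38.p6 build: Pdk4 at chr6:5496279-5496528 on the minus strand, and, on the plus strand, Igfbp1 at chr11:7197537-7197786, Pck1 at chr2:173152823-173153072, Pcx at chr19:4510222-4510471 and chr19:4594069-4594318, and Glud1 at chr14:34310477-34310726. Capitals mark matches, on either strand, to GCGTG (core of the AhR's dioxin response element), TGACG (the core of a cAMP response element), GTAAACA (a forkhead site) or AAACAA (core of an insulin response element).
Pdk4: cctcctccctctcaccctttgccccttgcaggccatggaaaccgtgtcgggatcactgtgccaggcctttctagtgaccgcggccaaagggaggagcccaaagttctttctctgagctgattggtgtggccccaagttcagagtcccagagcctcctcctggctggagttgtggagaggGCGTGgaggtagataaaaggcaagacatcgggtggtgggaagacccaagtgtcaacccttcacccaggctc
Igfbp1: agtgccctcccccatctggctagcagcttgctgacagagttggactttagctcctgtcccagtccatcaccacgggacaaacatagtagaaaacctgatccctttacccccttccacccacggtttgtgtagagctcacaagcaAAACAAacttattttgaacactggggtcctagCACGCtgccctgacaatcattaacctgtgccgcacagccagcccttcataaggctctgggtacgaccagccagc
Pck1: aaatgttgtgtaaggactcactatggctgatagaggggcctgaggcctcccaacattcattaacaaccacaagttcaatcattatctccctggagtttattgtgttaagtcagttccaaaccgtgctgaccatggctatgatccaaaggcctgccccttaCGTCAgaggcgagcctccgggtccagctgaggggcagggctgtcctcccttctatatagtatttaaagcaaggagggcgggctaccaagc
Pcx promoter 1: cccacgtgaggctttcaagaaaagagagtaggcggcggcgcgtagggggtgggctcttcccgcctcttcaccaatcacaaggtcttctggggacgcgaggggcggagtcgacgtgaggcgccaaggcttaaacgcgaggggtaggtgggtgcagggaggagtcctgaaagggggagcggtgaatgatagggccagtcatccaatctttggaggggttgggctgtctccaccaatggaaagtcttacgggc
Pcx promoter 2: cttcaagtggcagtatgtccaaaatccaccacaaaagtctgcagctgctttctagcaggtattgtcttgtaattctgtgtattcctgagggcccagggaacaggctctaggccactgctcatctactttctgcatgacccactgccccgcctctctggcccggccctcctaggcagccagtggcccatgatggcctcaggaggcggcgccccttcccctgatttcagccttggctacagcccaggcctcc
Glud1: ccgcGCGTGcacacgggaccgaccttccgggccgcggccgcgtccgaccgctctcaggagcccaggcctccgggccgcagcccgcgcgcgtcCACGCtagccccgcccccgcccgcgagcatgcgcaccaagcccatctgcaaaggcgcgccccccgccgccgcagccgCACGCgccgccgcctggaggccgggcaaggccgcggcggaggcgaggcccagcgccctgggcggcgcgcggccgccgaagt

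Pdk4 held 1 GCGTG, at -71 from the start site. Igfbp1 held 1 GCGTG on the opposite strand, at -74, and 1 AAACAA at -106. Pck1 held 1 TGACG on the opposite strand, at -90. Glud1 held 3 GCGTG, at -246, -158 and -81, and the latter 2 lay on the opposite strand. Neither promoter of Pcx held any of these letters. Of 32851 promoters in the table, 28.2% held GCGTG in the same window, 17.8% TGACG, 18.3% AAACAA and 3.17% GTAAACA. Among the genes not called, Foxo1 held 1 GCGTG, Ppargc1a held 1 TGACG, and G6pc and Fbp1 held no match. A match of so few letters is a description of the sequence and not a binding site.

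Pck1, the enzyme that makes phosphoenolpyruvate from oxaloacetate, was at 996.1, 1090, 1205, 1141 and 982.1 CPM in vehicle. At 30 µg/kg it was at 839.3, 1474, 3325, 1881 and 1038 CPM in replicates 1 to 5. Replicates 2, 3 and 4 lay above all vehicle libraries and replicate 1 lay below all of them. The log2 fold change was 0.66 ± 0.23 (SE), with an edgeR adjusted p of 0.0453. Without replicate 3 it was 0.27 and not called (edgeR adjusted p = 0.385). The call was also lost without replicate 4 (0.62, edgeR adjusted p = 0.101) and without any 1 of the vehicle libraries (0.63 to 0.70, edgeR adjusted p from 0.06 to 0.0875), with little change in size. Counts from the sense strand alone lost the call as well (edgeR adjusted p = 0.0509). Over the 17 alternatives the adjusted p ran from 0.00512 to 0.385.

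Pcx, which turns pyruvate into oxaloacetate in mitochondria, was at 837.8, 836.8, 639.1, 713.8 and 680.4 CPM in vehicle. With 30 µg/kg it was at 602.9, 781.1, 1776, 1159 and 856.3 CPM in replicates 1 to 5. Replicate 1 lay below the vehicle range, replicate 2 inside it and the others above it. The log2 fold change was 0.48 ± 0.15 (SE), with an edgeR adjusted p of 0.025. Without replicate 3 it was 0.20 (edgeR adjusted p = 0.221). The call was also lost without replicate 4 (0.44) or without vehicle replicate 3, 4 or 5 (0.43 to 0.47), with little change in size. Over the 17 alternatives the adjusted p ran from 0.00056 to 0.343.

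Glud1, which releases ammonia from glutamate, was at 597.8, 568.8, 464.2, 507.7 and 467.2 CPM in vehicle. In the 30 µg/kg group it was at 513.6, 551.9, 808.2, 575.4 and 563.4 CPM in replicates 1 to 5. Only replicate 3 lay above the vehicle range, and the other 4 lay inside it. The log2 fold change was 0.21 ± 0.07 (SE), with an edgeR adjusted p of 0.0462. Without replicate 3 it was 0.08 (edgeR adjusted p = 0.421). Leaving out replicate 4 (0.23) or vehicle replicate 3, 4 or 5 (0.17 to 0.20) also ended the call. Over the 17 alternatives the adjusted p ran from 0.00372 to 0.421.

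The other enzymes and regulators missed the threshold. G6pc was at 874.5, 805.7, 503.2, 572.1 and 651.5 CPM in vehicle and at 478.4, 996.9, 1509, 546.7 and 466.7 CPM in replicates 1 to 5 of 30 µg/kg. Replicates 2 and 3 lay above all vehicle libraries and replicates 1 and 5 below all of them, and the log2 fold change was 0.23 ± 0.24 (SE, edgeR adjusted p = 0.598). Fbp1 was at 1008, 1208, 1390, 893.8 and 882.2 CPM in replicates 1 to 5, around a vehicle range of 933.7 to 1121 CPM, with a difference of 0.08 ± 0.09 on the log2 scale (edgeR adjusted p = 0.627). Ppargc1a was at 72.2, 100.3, 90.3, 75.8 and 87.2 CPM, against 61.5 to 80.1 CPM in vehicle (0.25 ± 0.13, edgeR adjusted p = 0.213). Foxo1 was at 46.2, 58.9, 75.5, 60.0 and 48.0 CPM, against 44.9 to 62.8 CPM in vehicle (0.20 ± 0.10, edgeR adjusted p = 0.185). Foxo1 shares 7.78% of its exonic bases with an antisense gene, Gm20402, which these unstranded counts cannot separate.

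Leaving out vehicle replicates 1 and 2, a choice made after seeing the data, also gave 5 called genes of 9, with a median log2 fold change of 0.47. The 5 were not identical. Foxo1 entered at 0.34 ± 0.11 on the log2 scale (edgeR adjusted p = 0.0306), and Pck1 left with 0.63 ± 0.28 (edgeR adjusted p = 0.146). Foxo1 was also called when vehicle replicate 1 alone was left out (0.29, edgeR adjusted p = 0.0413). Over the 17 alternatives the adjusted p of Foxo1 ran from 0.0306 to 0.639. Without replicate 3 of 30 µg/kg, 2 of the 9 genes were called, Pdk4 and Igfbp1.

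**Figure D2:**
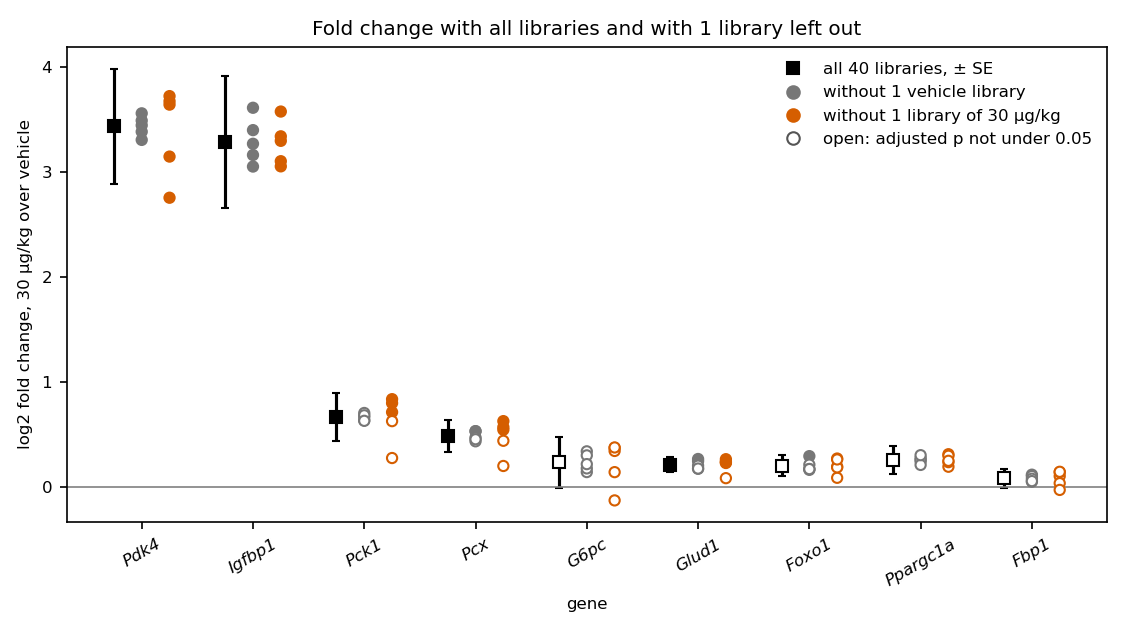
Log2 fold change of each gene at 30 µg/kg over vehicle, with all 40 libraries (squares, ± SE) and with 1 library left out (circles, grey for vehicle and orange for 30 µg/kg); open symbols missed an adjusted p of 0.05. Pdk4 and Igfbp1 stay filled throughout, while Pck1, Pcx and Glud1 turn open when replicate 3 of 30 µg/kg is left out.

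The same libraries stood at the ends of the 30 µg/kg range for most of the genes. Replicate 3 was the highest for 8 of 9 genes and replicate 2 for Ppargc1a. Replicate 1 was the lowest for 7 genes and replicate 5 for the remaining 2, G6pc and Fbp1. The spread between the highest and the lowest library was 21.9-fold for Pdk4, 14.6-fold for Igfbp1, 3.96-fold for Pck1, 3.23-fold for G6pc and 2.94-fold for Pcx. In vehicle the same spreads were 2.09-fold, 5.29-fold, 1.23-fold, 1.74-fold and 1.31-fold. The S3 marker sum ran in the exact opposite order to Pdk4 over these 5 libraries, from 4016 CPM in replicate 1 to 736.5 CPM in replicate 3. The summed level of 10 markers of the earlier S1 and S2 segments was 16720, 21270, 22290, 15610 and 13790 CPM in replicates 1 to 5, the same order over the libraries as Fbp1, and highest in replicates 3 and 2 as G6pc was. In vehicle it was 22470 and 22620 CPM in replicates 1 and 2 and 17500 to 18220 CPM in the others, and G6pc, Fbp1, Pcx and Glud1 were also highest in replicates 1 and 2. The part of either segment's markers in the results was not tested.

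**Figure D3:**
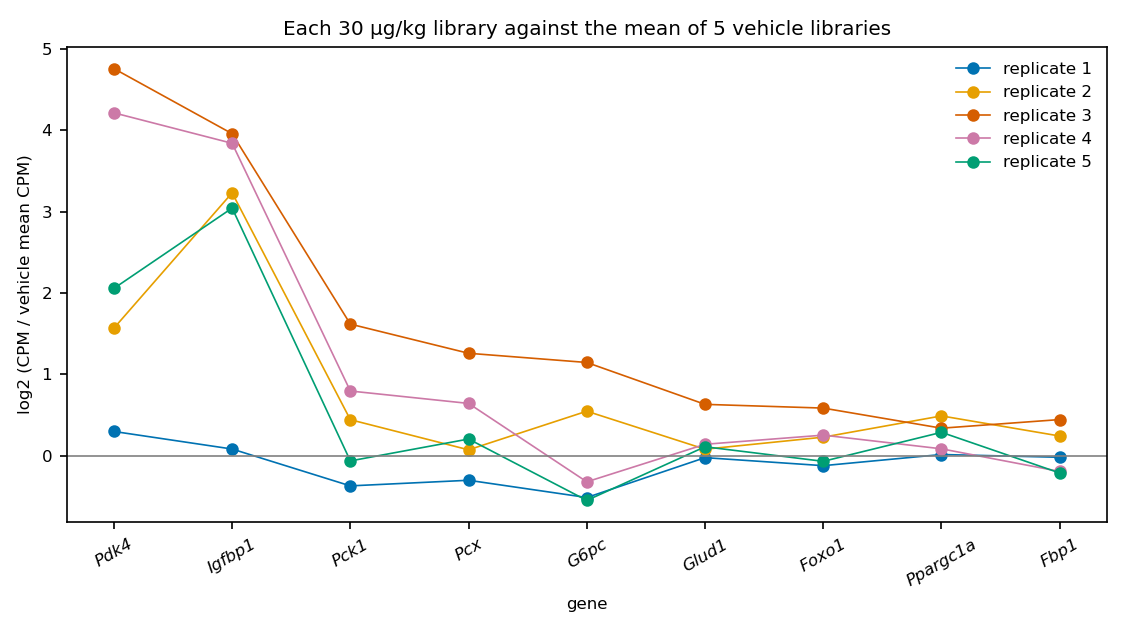
Log2 ratio of each 30 µg/kg library to the mean of the 5 vehicle libraries, by gene, with 1 line per replicate. Replicate 3 runs along the top for 8 of 9 genes, and replicate 1 lies near or below 0 for all genes but Pdk4, which is at 0.30.

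Liver is a rich source of several of these transcripts, so its markers are given beside them. The summed level of 12 liver markers was 155.6, 125.5, 298.8, 360.2 and 309 CPM in replicates 1 to 5 of 30 µg/kg, and 105.4 to 271.1 CPM in vehicle. Of the 9 liver markers tested, 4 were called higher (Fga, Fgb, Serpina1a and Apoc3) and 1 lower (Ttr). The defining marker Alb was at 2.48 to 9.05 CPM at 30 µg/kg and at 6.26 to 8.64 CPM in vehicle, and Ahsg, Serpina3k and Cps1 were each at 0.526 CPM or less in all 10 libraries. Replicates 3, 4 and 5, with the highest liver sums, were also the highest for Pdk4, at 720.5, 494.5 and 111.1 CPM. Replicate 2, with the lowest liver sum, held 39.2 CPM of Igfbp1. Brown fat markers summed to 98.1 to 195.2 CPM at 30 µg/kg and 21.8 to 49.0 CPM in vehicle, with Ucp1 and Elovl3 called higher. Their order over the 5 libraries was not that of Pdk4: replicate 3 held 108.1 CPM and replicate 5 held 195.2 CPM. Skeletal muscle markers, another tissue rich in Pdk4, summed to 0.625 to 1.56 CPM at 30 µg/kg and 0.453 to 1.77 CPM in vehicle, with Myh1, Myh2 and Myh4 at 0 in all 5 libraries of 30 µg/kg. White fat markers summed to 226.1 to 551.7 against 118.5 to 314.9 CPM, with 0 of 8 called higher and 1, Lep, called lower. Macrophage markers rose in 6 of 9 cases (sums 183.5 to 241.2 against 88.6 to 147.9 CPM) and endothelial markers in 6 of 8 (719.2 to 814 against 518.6 to 595.9 CPM). The part of the liver, fat, macrophage and endothelial markers in the results was not tested.

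Below 30 µg/kg none of the 9 genes was called against vehicle, by edgeR or by DESeq2. At 0.03, 0.1, 0.3, 1 and 3 µg/kg the lowest edgeR adjusted p among them was 0.935, 0.912, 0.929, 0.761 and 0.637, and 0 of the 9 had an unadjusted p under 0.05. The shares of all genes called at these doses were 0, 0, 0.00577, 0.513 and 1.09%. At 10 µg/kg, where 4.82% of all genes were called (3.82% higher and 0.997% lower), the lowest adjusted p was 0.263, and 1 of the 9 genes, Igfbp1, had an unadjusted p under 0.05.

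Mean Igfbp1 levels were 3.46, 3.98, 5.58, 4.23 and 3.83 CPM from 0.03 to 3 µg/kg, against 4.18 CPM ± 2.40 (SD, n = 5) in vehicle. At 10 µg/kg Igfbp1 was at 9.98, 13.8, 18.0, 4.35 and 7.27 CPM, with 3 libraries above all vehicle libraries (log2 fold change 1.35 ± 0.62, edgeR adjusted p = 0.263). Mean Pdk4 levels were 30.2, 26.7, 36.9, 35.2 and 29.8 CPM from 0.03 to 3 µg/kg, against 26.7 CPM ± 7.15 (SD, n = 5) in vehicle. At 10 µg/kg Pdk4 was at 50.6, 74.9, 37.2, 53.0 and 35.5 CPM, with 4 libraries above all vehicle libraries and the lowest just inside their range (log2 fold change 0.92 ± 0.52, edgeR adjusted p = 0.412). Both genes thus lay highest at 30 µg/kg and next highest at 10 µg/kg by mean level, and the ranges of these neighbouring groups overlapped.

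For every 1 of the 9 genes, the ranges of any 2 groups next to each other in the order of means overlapped. Pck1 means ran from 961 CPM at 3 µg/kg to 1393 CPM at 0.3 µg/kg below the highest dose. Its means at 0.03, 0.1 and 0.3 µg/kg (1376, 1354 and 1393 CPM) lay above vehicle (1083 CPM) and those at 1 and 3 µg/kg (964.8 and 961 CPM) below it, with edgeR adjusted p from 0.908 to 0.951. Pcx means ran from 615.2 to 687.3 CPM at the 6 lower doses, below the 741.6 CPM of vehicle. Vehicle replicates 1 and 2 were the highest below 30 µg/kg for Pcx. G6pc means ran from 519.6 to 741.4 CPM, Fbp1 from 930.8 to 1020 CPM, Glud1 from 475.7 to 521.2 CPM, Ppargc1a from 68.8 to 74.5 CPM and Foxo1 from 47.4 to 55.2 CPM in the groups below 30 µg/kg.

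The genes differ widely in abundance. Per kilobase of exon, vehicle kidneys held 599 CPM of Fbp1, 316 of Pck1, 282 of G6pc, 156 of Pcx and 124 of Glud1. The regulators were lower, at 10.8 CPM per kilobase for Ppargc1a, 7.61 for Pdk4, 5.80 for Foxo1 and 2.74 for Igfbp1. At 30 µg/kg Pdk4 reached 81.9 ± 86.6 and Igfbp1 26.6 ± 15.7 CPM per kilobase (SD, n = 5), which stayed below the mean levels of all 5 enzymes.

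Set directly against 10 µg/kg, the 30 µg/kg group was higher in Pdk4 (log2 difference 2.51 ± 0.52, edgeR adjusted p = 0.0059), Pcx (0.68 ± 0.15, 0.00924) and Glud1 (0.32 ± 0.07, 0.00922). These are 3 of 9 genes, where 2.7% of all genes were called, 1.19% higher and 1.52% lower. Igfbp1 missed the threshold (1.93 ± 0.59, edgeR adjusted p = 0.0705), as did Pck1 (0.54 ± 0.23, 0.245). All 3 calls were lost without replicate 3 of 30 µg/kg, with edgeR adjusted p of 0.0583 for Pdk4, 0.0507 for Pcx and 0.124 for Glud1. They were also lost when the fit held the 2 groups alone, where 0 of all genes were called (edgeR) and 1644 had an unadjusted p under 0.05; DESeq2, on all 40 libraries, called 631. Over the 16 alternatives the adjusted p ran from 3.33e-05 to 0.414 for Pdk4, 6.54e-05 to 0.453 for Pcx and 0.00071 to 0.363 for Glud1. Igfbp1 passed with DESeq2 (adjusted p = 0.0335) and without replicate 1 of 30 µg/kg (edgeR adjusted p = 0.00922). Pck1 also passed without that replicate (edgeR adjusted p = 0.0393). Their adjusted p ran from 0.00922 to 0.43 for Igfbp1 and from 0.0393 to 0.876 for Pck1.

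Over all 8 dose ranks, a linear trend was called for Pdk4 (0.41 ± 0.07 log2 units per rank, edgeR adjusted p = 1.12e-05) and Igfbp1 (0.44 ± 0.07, 2.09e-05), 2 of 9 genes where 19.8% of all genes were called, 11% higher and 8.84% lower. Both kept the trend without each single library in turn. Without vehicle replicates 1 and 2, Foxo1 joined them at 0.04 per rank (edgeR adjusted p = 0.017, range 0.017 to 0.615 over its alternatives). It also joined them without vehicle replicate 1 alone (0.03 per rank, edgeR adjusted p = 0.0247). Without the 30 µg/kg group Pdk4 and Igfbp1 both missed the threshold, at 0.12 per rank for Pdk4 (edgeR adjusted p = 0.108) and 0.19 for Igfbp1 (0.14). In that fit the 1 gene called was Pcx, which fell by 0.04 per rank from vehicle to 10 µg/kg (edgeR adjusted p = 0.00991), opposite in sign to its uncalled trend over all doses (0.04 per rank, edgeR adjusted p = 0.256). Over the 47 alternatives of the trend the adjusted p ran from 5.98e-07 to 0.108 for Pdk4, 4.51e-06 to 0.14 for Igfbp1 and 0.00991 to 0.929 for Pcx.

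The genes also varied together between mice given the same dose. Pearson r was computed for all 36 pairs on log2 CPM after subtracting each group's mean, with 100000 permutations within groups (two-sided). Over the 40 libraries, 15 pairs passed after Benjamini-Hochberg adjustment over the 36 pairs, all with positive r. By Spearman's rho 12 pairs passed, and 10 pairs passed by both measures. The 12 include a negative pair, Pcx with Ppargc1a (rho = -0.42, permutation p = 0.01235, adjusted 0.037), whose r was -0.13 and did not pass. The strongest pair by r was Pcx with Glud1 (r = 0.84, permutation p = 1e-05, the smallest these permutations can give, adjusted 0.00036). Its rho was 0.60 (permutation p = 0.0005, adjusted 0.006), and r was 0.61 without the 2 libraries farthest from the median of Pcx. Foxo1 with Glud1 had r = 0.72 (permutation p = 5e-05, adjusted 0.0009) and rho = 0.59 (0.00029, adjusted 0.006), and r was 0.56 without the 2 farthest libraries. Pdk4 with Igfbp1 had r = 0.64 (permutation p = 0.00012, adjusted 0.00144) and rho = 0.59 (0.00049, adjusted 0.006), and r was 0.51 without the 2 libraries farthest in Pdk4.

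Without the 30 µg/kg group, over 35 libraries, 10 pairs passed, of which 8 were positive. Pcx with Glud1 (r = 0.65, permutation p = 0.00125, adjusted 0.0112) was among them, with rho = 0.56 (permutation p = 0.00439, adjusted 0.0226). So was Pdk4 with Igfbp1 (r = 0.55, permutation p = 0.00243, adjusted 0.0175; rho = 0.56, permutation p = 0.00247, adjusted 0.0226). Pck1 passed with no other gene there, and over all libraries its r with Pcx was 0.61 (permutation p = 0.0494, adjusted 0.0847) but 0.08 without the 2 farthest libraries, so that relation rested on those libraries. Fbp1 and Pcx moved together (r = 0.77, rho = 0.75, each with permutation p = 1e-05, adjusted 0.00036). Ppargc1a moved against both, with r = -0.51 to Fbp1 (permutation p = 0.00519, adjusted 0.0234) and -0.44 to Pcx (permutation p = 0.00983, adjusted 0.0393), and with rho of -0.54 and -0.51 (permutation p = 0.00313 and 0.00394, both adjusted 0.0226). Without vehicle replicates 1 and 2, 14 pairs passed by r over 38 libraries, 10 by rho and 7 by both. Over all 40 libraries these counts were 15, 12 and 10. Fbp1 with Glud1 and Pcx with Foxo1 no longer passed by r (adjusted permutation p = 0.0622 and 0.124). Pck1 with Glud1 newly passed by r (adjusted permutation p = 0.0441).

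**Figure D4:**
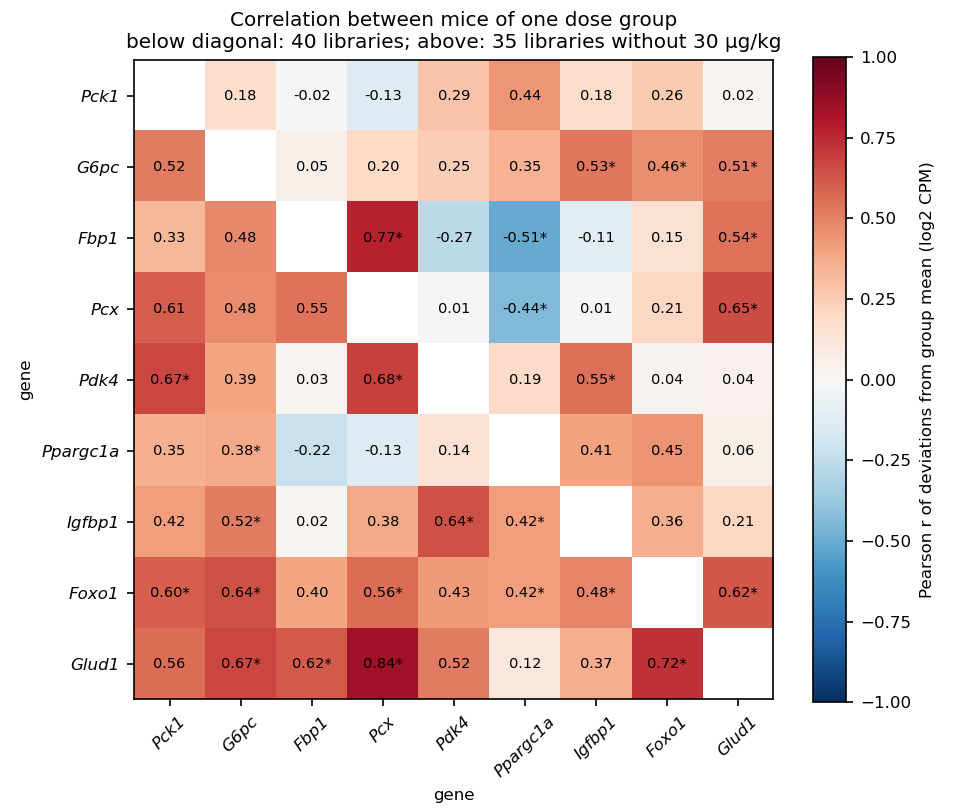
Pearson r between pairs of the 9 genes for deviations of log2 CPM from the group mean, below the diagonal over 40 libraries and above it over the 35 libraries without 30 µg/kg; stars mark adjusted permutation p under 0.05. Pcx with Glud1 and Pdk4 with Igfbp1 are starred on both sides. The 2 negative pairs of Ppargc1a, with Fbp1 and with Pcx, are starred only above the diagonal.

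The genes whose log2 CPM followed each called gene most closely over the 40 libraries are named as a description, and these libraries share the wide spread of the 30 µg/kg group. Pdk4 was followed by Angptl4 (r = 0.94), which encodes an inhibitor of lipoprotein lipase, and Fgg (0.91), a fibrinogen chain. Angptl4 was at 24.8, 71.6, 409.7, 261.6 and 114.5 CPM in replicates 1 to 5 of 30 µg/kg, the same order as Pdk4. Igfbp1 was followed by Depp1 (r = 0.92), a known FOXO target, and Erbb3 (0.90), a growth factor receptor. Depp1 was at 5.11, 76.5, 80.1, 84.7 and 53.9 CPM in replicates 1 to 5, so that replicate 1 alone lay below the vehicle mean of 7.09 CPM. Pcx was followed by Sqor (0.94) and Ass1 (0.93), Glud1 by Sqor (0.92) and Gldc (0.92), and Pck1 by Herpud1 (0.81) and Tfcp2l1 (0.73). Ass1, which encodes argininosuccinate synthase of the tubule's arginine synthesis, was itself one of the proximal tubule markers.

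Of the pathway lists, cell type markers aside, fasting fuel use had the largest median at 30 µg/kg after the AhR response genes. It holds targets of PPARalpha, the receptor that switches on fatty acid oxidation and ketone synthesis. Of 19 tested, 13 were called higher and 0 lower, where 8.39% of all genes tested were called higher and 7.55% lower. The list's median log2 fold change was 0.90, against 0.01 over all genes tested. This list too was chosen with earlier results of these data known, so its count is not independent of the data. All 13 were highest in replicate 3 or 4, and 11 were lowest in replicate 1 or 2, while the S3 marker sum ran the other way. Ucp2, a mitochondrial uncoupling protein, rose by 0.90 ± 0.12 (edgeR adjusted p = 5.65e-07), Cyp4a14, a fatty acid hydroxylase, by 5.60 ± 0.71 (1.06e-06) and Hadha, of mitochondrial beta-oxidation, by 0.60 ± 0.09 (2.57e-06). Cyp4a14 was at 141.2, 171.2, 3393, 2004 and 623.4 CPM in replicates 1 to 5, against 15.3 to 38.7 CPM in vehicle, so all 5 libraries lay above vehicle. Ppara itself, chosen after its values were seen, missed the threshold (0.48 ± 0.21, edgeR adjusted p = 0.112), and Fgf21 was too low to test. Without replicate 3, 12 of the 19 were called higher, and without vehicle replicates 1 and 2, 11 were called higher and 1 lower. In the fit to the 2 groups alone 4 were called, and at 10 µg/kg 1 was called higher.

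Among 23 other gluconeogenic enzymes and carriers tested, 2 were called higher and 6 lower, with a median of -0.12. At this dose 8.39% of all genes tested were called higher and 7.55% lower. Pck2, the mitochondrial isoform of the Pck1 enzyme, rose by 0.64 ± 0.13 (edgeR adjusted p = 0.000385) and Fbp2, the muscle-type bisphosphatase, by 0.77 ± 0.18 (0.00239), from vehicle means of 17.3 and 15.6 CPM. Tpi1 (-0.26 ± 0.06, edgeR adjusted p = 0.0012), glycerol kinase Gk (-0.40 ± 0.10, 0.00225) and cytosolic malate dehydrogenase Mdh1 (-0.25 ± 0.06, 0.00447) fell. Without vehicle replicates 1 and 2 the counts were 3 higher and 2 lower, and Mdh1 missed the threshold (edgeR adjusted p = 0.0513, range 0.000356 to 0.18 over its alternatives). Among 15 tested control steps of glycolysis, 0 were called higher and 1, the lactate dehydrogenase subunit Ldha, fell (-0.30 ± 0.06, edgeR adjusted p = 0.000423). That is a smaller share than the 15.9% called over all genes.

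Beside Pdk4, the pyruvate dehydrogenase list held 1 called higher and 2 lower of 11, where 8.39% of all genes were called higher and 7.55% lower. Pdk2, another pyruvate dehydrogenase kinase, rose by 0.27 ± 0.08 (edgeR adjusted p = 0.00799), but not without replicate 3 (0.0706, range 0.000167 to 0.19 over its alternatives). Pdk3, a further kinase isoform, fell by 0.67 ± 0.13 (edgeR adjusted p = 0.000191) and Pdp2, a phosphatase that reactivates the complex, by 0.46 ± 0.10 (0.00132). Of 11 genes of glutamine use and ammonia production, 4 were called higher and 4 lower, beside the same shares of all genes. The glutamine transporter Slc38a3 rose by 1.41 ± 0.29 (edgeR adjusted p = 0.000737), glutamine synthetase Glul by 0.42 ± 0.09 (0.000767) and Slc7a7, a carrier of basic amino acids, by 0.74 ± 0.16 (0.001). The fit to the 2 groups alone lost these calls (edgeR adjusted p = 0.176, 0.065 and 0.145). Slc38a3 ran from 8.30 to 32.8 CPM in vehicle, and its means from 0.03 to 3 µg/kg were already 33.8 to 42.1 CPM. Replicate 2 of 30 µg/kg, at 23.4 CPM, lay inside the vehicle range. Ggt1 (-0.45 ± 0.09, edgeR adjusted p = 0.00017), the ammonia channel Rhcg (-0.33 ± 0.07, 0.000374) and the glutamate transporter Slc1a1 (-0.21 ± 0.07, 0.0311) fell. Slc1a1 missed the threshold when any 1 of 5 libraries was left out, vehicle replicates 3, 4 and 5 and replicates 4 and 5 of 30 µg/kg (0.0523 to 0.154, range 0.0107 to 0.203 over its alternatives).

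**Figure D5:**
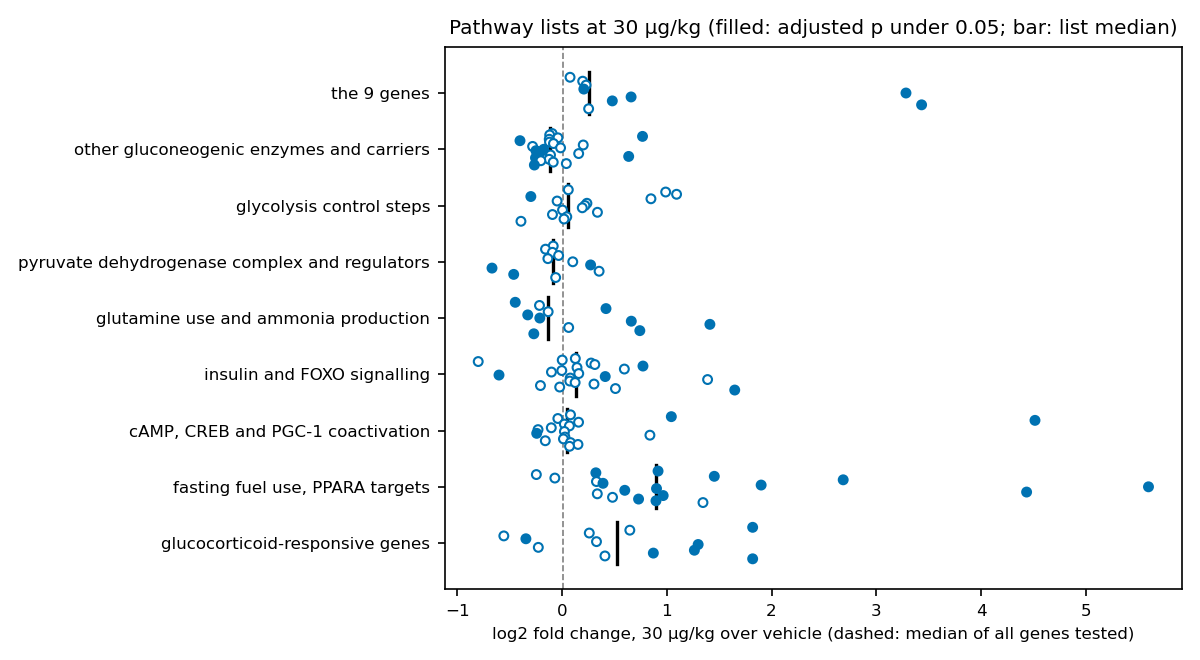
Log2 fold change at 30 µg/kg over vehicle for the genes of each pathway list (filled circles, adjusted p under 0.05; bars, list medians; dashed line, median of all genes tested). The AhR list is not drawn. The PPARalpha target list has the median farthest to the right, 0.90, and the list of other gluconeogenic enzymes lies slightly left of 0, at -0.12.

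Among 22 genes of insulin and FOXO signalling, 3 were called higher and 1 lower, with a median of 0.14. The 4 calls of 22 are close to the 15.9% called over all genes. Txnip, an inhibitor of glucose uptake, was at 180.2, 282.6, 1075, 844.7 and 342 CPM in replicates 1 to 5, against 122 to 234.3 CPM in vehicle (log2 fold change 1.65 ± 0.34, edgeR adjusted p = 0.000702). The insulin receptor Insr rose by 0.41 ± 0.10 (edgeR adjusted p = 0.00159) and Foxo3 by 0.77 ± 0.19 (0.00471), both highest in replicate 3 and lowest in replicate 1. Igfbp5, another binding protein of insulin-like growth factors, fell by 0.60 ± 0.18 (edgeR adjusted p = 0.02), but not without vehicle replicate 5 (0.0527, range 0.000519 to 0.339 over its alternatives). Irs2, a FOXO-driven adaptor of the insulin receptor, was at 21.6, 36.9, 123.9, 147.9 and 56.7 CPM in replicates 1 to 5. It missed the threshold (1.39 ± 0.52, edgeR adjusted p = 0.067). Bcl6 of the same list ran the other way, at 85.0, 49.1, 12.8, 18.1 and 30.4 CPM. It missed the threshold as well (-0.80 ± 0.65, edgeR adjusted p = 0.469), as did Sesn3 (-0.20 ± 0.09, 0.129) and Klf15 (0.07 ± 0.18, 0.847). These uncalled genes were chosen after their values were seen.

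Of 18 genes of cAMP, CREB and PGC-1 signalling, 2 were called higher and 1 lower, a share close to the 15.9% called over all genes. Creb3l3, a hepatic fasting factor, was at 0.398, 0.509, 12.9, 6.29 and 0.764 CPM in replicates 1 to 5 and at 0.0507 to 0.34 CPM in vehicle (log2 fold change 4.51 ± 0.97, edgeR adjusted p = 0.000828). Its level outside replicates 3 and 4 was near the floor, and the lowest library was at 0 CPM in each group from 0.03 to 10 µg/kg. The fit to the 2 groups alone lost this call (edgeR adjusted p = 0.0608). Cebpb rose by 1.04 ± 0.26 (edgeR adjusted p = 0.00422), and Hnf4a fell by 0.24 ± 0.08 (0.0243), but not without vehicle replicate 1 or 2, or replicate 4 or 5 of 30 µg/kg (0.0641 to 0.131, range 0.00277 to 0.216 over its alternatives). Of 12 genes known to respond to glucocorticoids, the hormones that also drive Pck1 and Pdk4 in fasting, 5 were called higher and 1 lower, with a median of 0.53. Beside these counts, 8.39% of all genes were called higher and 7.55% lower. Mt1, a metallothionein, rose by 1.30 ± 0.13 (edgeR adjusted p = 1.17e-09), Cdkn1a, a cell cycle inhibitor, by 1.82 ± 0.23 (4.74e-07) and the clock gene Per1 by 1.26 ± 0.41 (0.0332). Per1 missed the threshold when vehicle replicate 1, 3 or 4 or replicate 3, 4 or 5 of 30 µg/kg was left out (0.067 to 0.103, range 0.00599 to 0.18 over its alternatives). Hsd11b2, which inactivates corticosterone, fell by 0.34 ± 0.08 (edgeR adjusted p = 0.00221). Fkbp5 (0.26 ± 0.27, edgeR adjusted p = 0.585) and Tsc22d3 (0.41 ± 0.23, 0.254) missed the threshold, and were named after their values were seen. In replicate 1, the lowest for Pdk4, Mt1 was at 2.32 and Cdkn1a at 2.36 times the vehicle mean. At 10 µg/kg 2 of the 12 were called higher and 0 lower. The glucocorticoid count fell to 2 higher and 1 lower without replicate 3, and to 2 higher and 2 lower without vehicle replicates 1 and 2. All 6 genes of the AhR list rose, and their order over the libraries was not that of Pdk4: 4 of the 6 were highest in replicate 4, and 1 was lowest in replicate 1. The part of the AhR response in the differences between these libraries was not tested.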

How the data were processed

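The authors deposited gene counts for each library, whole numbers in an unstranded and 2 stranded columns. The submitters' processing notes name FastQC 0.11.7, Trimmomatic 0.39, STAR 2.7.3a and DESeq2, and the builds GRCm39 and mm10 with no role; which build the counts used is not given in the sources used here. Sense reads made up 50.4 to 51.0% of the stranded columns, and the analysis took the unstranded one. Lines that name no gene (21.2 to 23.9% of reads) were left out. Of the identifiers, 52083 were named with GENCODE M21, which also gave exon lengths.

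Counts were filtered with filterByExpr, scaled with TMM (factors 0.966 to 1.09) and fitted to all 40 libraries with edgeR 4.0.16 (quasi-likelihood, robust, R 4.3.3), with no covariates. Fold changes used a prior count of 0.125 and log2 CPM one of 2. Alternatives were RLE size factors, DESeq2 1.42.0, no filter, fits to the groups compared alone, the sense column, a term for 2 unexplained runs of title numbers, leaving out each library and, chosen after seeing the data, leaving out vehicle replicates 1 and 2. The fits were tested on simulated data. Replicates were numbered in order of deposition; separate mice are implied by the design. From each pathway list, up to 3 called genes per direction with the lowest p were named, and for each called gene the 2 others most like it. The 9 genes and all lists were chosen with earlier results of these data known. The labels name no molecular identifiers.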

Additional observations from a re-analysis of the deposited data

Results flagged for a closer look

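In each group of 5 libraries, the highest and lowest value of the 9 genes and of the total gene counts was set against its neighbour. Of 80 groups, 9 held a value whose gap to the next exceeded 0.71 of the whole spread. A nominal rate of 1 in 20 would give about 4. Every value set apart was the highest of its group, and the nominal rate may not hold for such skewed values. The 9 are therefore not read as an excess over chance. Of these values, 6 were single high values of the 9 genes. At 0.1 µg/kg, Pck1 was at 1898 CPM in replicate 5 (next 1367) and Igfbp1 at 10.8 CPM in replicate 4 (next 2.35). At 0.3 µg/kg, G6pc was at 911.6 CPM in replicate 3 (next 636) and Pdk4 at 77.8 CPM in replicate 5 (next 35.1), a level close to replicate 2 of 30 µg/kg. Fbp1 was at 1092 CPM in replicate 4 of 3 µg/kg (next 958.2), and Glud1 at 808.2 CPM in replicate 3 of 30 µg/kg (next 575.4). No library held more than 1 of these 6 values. The other 3 were total gene counts: 22659733 in replicate 2 of 0.1 µg/kg, 20292573 in replicate 1 of 1 µg/kg and 24017319 in replicate 5 of 30 µg/kg.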

How the results depend on the processing

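No paired analysis was possible because the labels carry no replicate numbers. With DESeq2, 7, 3 and 284 genes in all were called at 0.03, 0.3 and 3 µg/kg, against 0, 1 and 189 with edgeR. Fits to the 2 groups alone called 114 genes at 3 µg/kg, 961 at 30 µg/kg (against 2766) and 0 between 30 and 10 µg/kg (against 469), and of the 9 genes they called 1 at 30 µg/kg and 0 between 30 and 10 µg/kg. Without the filter, where 34307 genes were adjusted over, 2 of the 9 genes were called at 30 µg/kg. Without the 30 µg/kg group the trend was called for 1409 genes (against 3439) and 1 of the 9, and the slope of Pcx reversed to -0.0373 per rank. Without vehicle replicates 1 and 2, 56, 108 and 524 genes were called at 1, 3 and 10 µg/kg, against 89, 189 and 836. Between mice, 10 pairs passed without 30 µg/kg, against 15.

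Leaving out 1 library at a time gave 2 to 5 of the 9 genes at 30 µg/kg, 0 to 5 between 30 and 10 µg/kg, 2 to 3 for the trend and 0 at every lower dose. Over all genes it gave 0 to 1, 0, 1, 64 to 106, 120 to 199, 582 to 895 and 2012 to 3290 from 0.03 to 30 µg/kg, 146 to 1205 between 30 and 10 µg/kg, and 2767 to 3596 for the trend. Of 33 other genes named from the lists, 28 kept their call without any single library, and 15 kept it in the fit to the 2 groups alone; the cause of the losses was not tested. Igfbp1 rests on the fewest counts of the 9 genes.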
